A study of Mus musculus with 16 samples.

Results

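The genes of the mitochondrial ribosome were followed in heart RNA of mice lacking PPARα in cardiomyocytes and of Ppara-flox mice, each given lipopolysaccharide (LPS) or phosphate buffered saline (PBS). Members were taken by name alone: a gene symbol of Mrpl or Mrps, then digits and at most 1 letter, with pseudogene symbols left out. The rule found 78 genes among the 55278 gene symbols of the count tables. All 78 passed the filter on low counts, which kept 18713 genes. The 16 hearts fell into 4 groups of 4: PPARα-deficient hearts after LPS, Ppara-flox hearts after LPS, PPARα-deficient hearts after PBS and Ppara-flox hearts after PBS. All mice were males on the C57BL/6J background, 8 to 12 weeks old, and were injected into the peritoneum with 5 mg/kg LPS or with PBS alone 12 h before the heart was taken. LPS is a component of the outer membrane of Gram-negative bacteria that sets off systemic inflammation. PPARα is a nuclear receptor that drives fatty acid oxidation genes in heart muscle. The labels restrict the PPARα loss to cardiomyocytes and do not name the Cre driver, no group carried Cre on an unfloxed background, and other heart cells of the PPARα-deficient mice can still express Ppara.

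Mitochondrial ribosomes translate the few proteins encoded by mitochondrial DNA, all of them core subunits of the respiratory chain and ATP synthase. Their RNAs are encoded in the mitochondrial genome, whereas every protein of their large and small subunits is encoded in the nucleus, made in the cytosol and imported. Many of these proteins have bacterial counterparts and others exist only in mitochondrial ribosomes. In the heart, defects of several of them are known from human patients as causes of cardiomyopathy.

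By the systematic nomenclature, 51 members belong to the large subunit, of which 30 have a bacterial counterpart and 21 are specific to mitochondria. The small subunit has 26 members, 16 of bacterial type and 10 specific to mitochondria. Mrps18a and Mrps30 carry small-subunit names, but their proteins sit in the large subunit and they are counted there. Mrps36 also meets the naming rule, although its protein is now assigned to the 2-oxoglutarate dehydrogenase complex. It is described apart.

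The libraries held 65569134 to 75436023 deposited counts, and transcripts of the mitochondrial genome took 22.5% to 29.8% of them. Ppara itself stood at 4.25 to 11.9 CPM (counts scaled to library size) in PPARα-deficient LPS hearts, 7.23 to 14.7 CPM in Ppara-flox LPS hearts, 11.4 to 17.6 CPM in PPARα-deficient PBS hearts and 37.4 to 59.3 CPM in Ppara-flox PBS hearts. The genotypes were apart under PBS (log2 fold change -1.79, adjusted p = 0.00287), while after LPS the ranges overlapped (-0.50, adjusted p = 0.651). Esr1, the gene of oestrogen receptor alpha, named after its values were seen, also separated the genotypes. It stood at 28.3 to 152 CPM in PPARα-deficient LPS hearts, 0.0522 to 0.516 CPM in Ppara-flox LPS hearts, 2859 to 3200.5 CPM in PPARα-deficient PBS hearts and 0.0517 to 0.512 CPM in Ppara-flox PBS hearts. Whether these counts come from a transgene, and their part in any result, was not tested. The extraction text of the labels speaks of pancreatic islets. All 6 islet markers examined (Ins1, Ins2, Gcg, Sst, Iapp and Pdx1) were at 0 in every library, and 8 cardiomyocyte markers summed to between 30412 and 65817 CPM.

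Levels differed widely between members. Expressed per kilobase of the principal annotated transcript and averaged over the 16 hearts, Mrpl42 was highest at 308 CPM per kb, followed by Mrps21 at 98.6, Mrpl30 at 86.5 and Mrpl12 at 80.8 CPM per kb. The median member reached 25.0 CPM per kb. The lowest was Mrpl17 at 4.26 CPM per kb. These levels rest on annotated transcript lengths, which need not be the forms made in the heart. The fewest counts in any library were 341, for Mrpl53, so no member was near the detection limit.

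Many mitochondrial ribosomal protein transcripts were lower after LPS and a few were higher, in both genotypes. In PPARα-deficient hearts, 29 of the 78 members were lower after LPS at an adjusted p under 0.05 (edgeR quasi-likelihood test, Benjamini-Hochberg over all genes tested), 6 were higher and 43 were not called. Across all genes tested in that comparison, 18.3% were lower and 19.4% were higher, against 37.2% and 7.69% of the members. In Ppara-flox hearts, 33 members were lower, 6 were higher and 39 were not called, where 19.1% of all genes tested were lower and 20.2% higher, against 42.3% and 7.69% of the members. Among genes with at least 1 CPM in 8 libraries, which are closer to the members in level, 24.2% were lower in PPARα-deficient hearts and 25.3% in Ppara-flox hearts. The median log2 fold change of the members was -0.17 in PPARα-deficient hearts and -0.21 in Ppara-flox hearts, while that of all genes was 0.0084 and 0.0082. Because these are whole hearts, less RNA per cell and fewer cells of a type cannot be told apart.

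The changes were small for most members. The log2 fold change lay below 0 for 59 members in PPARα-deficient hearts and for 61 in Ppara-flox hearts, yet only 5 and 8 of the lower calls reached 1.5-fold. All 4 LPS hearts lay below all 4 PBS hearts for 32 members in PPARα-deficient hearts (18.4% of all genes tested) and for 29 in Ppara-flox hearts (18.4%). They lay above for 5 members in PPARα-deficient hearts (19.5%) and for 6 in Ppara-flox hearts (19.2%). Leaving out each library in turn kept 21 of the 29 lower calls and 5 of the 6 higher calls in PPARα-deficient hearts, and 23 of the 33 lower and 4 of the 6 higher in Ppara-flox hearts.

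Summed over all 78 members, transcripts reached 2927, 2886, 2779 and 2991 CPM in PPARα-deficient LPS hearts, against 3367, 3295, 3295 and 3274 CPM in PPARα-deficient PBS hearts. The sums were 2749, 2991, 2806 and 2596 CPM in Ppara-flox LPS hearts, against 3095, 3518, 3263 and 3168 CPM in Ppara-flox PBS hearts. In neither genotype did the sums of LPS and PBS hearts overlap.

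**Figure D1:**
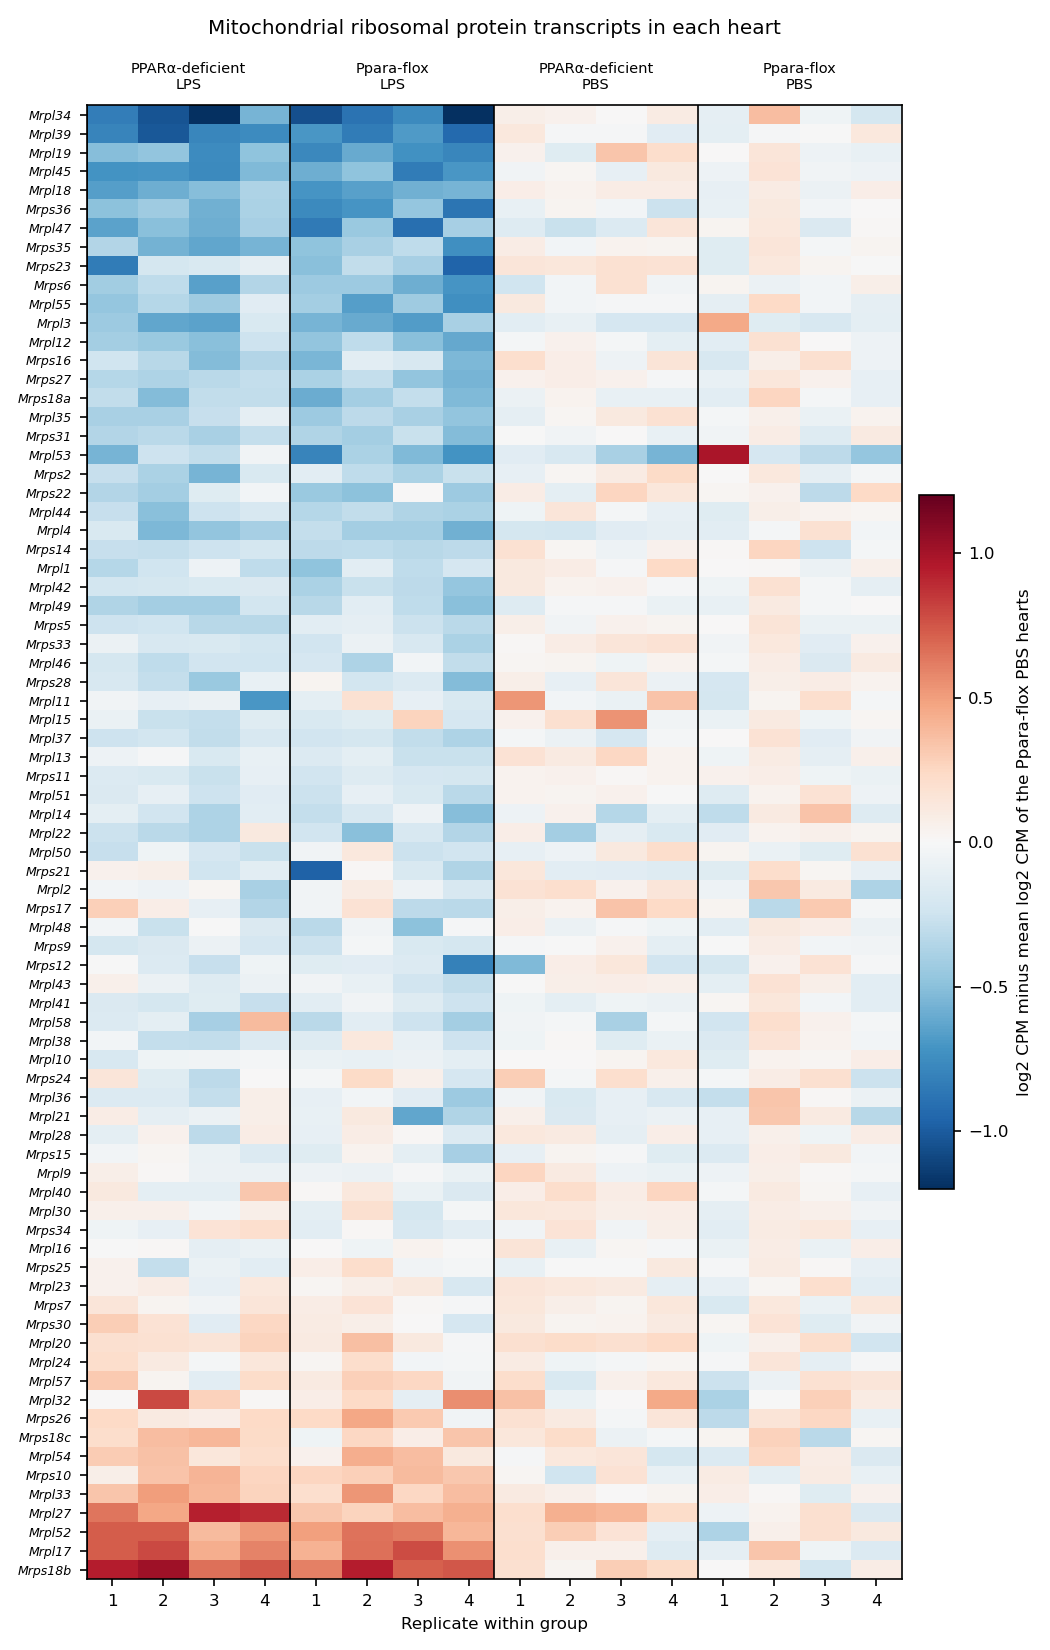
Each row is a mitochondrial ribosomal protein gene and each column a heart, grouped as PPARα-deficient LPS, Ppara-flox LPS, PPARα-deficient PBS and Ppara-flox PBS. Colour gives log2 CPM minus the mean log2 CPM of the 4 Ppara-flox PBS hearts, with colours saturating at 1.2 on either side. Rows run by the mean of the LPS fold changes in both genotypes: Mrpl34 and Mrpl39 are darkest blue in the 8 LPS hearts, and Mrps18b, Mrpl17 and Mrpl52 are red in them.

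Markers of heart cell types moved with LPS as well. The summed level of 8 cardiomyocyte markers was 34265 to 38998 CPM in PPARα-deficient LPS hearts, against 53939 to 61581 CPM in PPARα-deficient PBS hearts, with 6 of the 8 lower. It was 30412 to 36078 CPM in Ppara-flox LPS hearts, against 58439 to 65817 CPM in Ppara-flox PBS hearts, with 8 of 8 lower. Neutrophil markers summed to 53.5 to 88.6 CPM in PPARα-deficient LPS hearts, against 4.06 to 11.6 CPM in PPARα-deficient PBS hearts, and to 61.6 to 111.0 CPM in Ppara-flox LPS hearts, against 3.85 to 5.28 CPM in Ppara-flox PBS hearts. Hdc made up the largest part of this sum in every LPS heart. It stood at 26.7 to 61.1 CPM in PPARα-deficient LPS hearts and 39.6 to 65.2 CPM in Ppara-flox LPS hearts. Ly6g, the defining neutrophil marker, was at 0 in all PBS hearts and at 0 to 0.232 CPM in LPS hearts, too low for a comparison. Of 7 neutrophil markers tested, 6 were higher in each genotype. The sum of 8 macrophage markers was lower after LPS, at 161 to 224 CPM in PPARα-deficient LPS hearts, against 293 to 347 CPM in PPARα-deficient PBS hearts, and at 137 to 181 CPM in Ppara-flox LPS hearts, against 262 to 313 CPM in Ppara-flox PBS hearts, with 4 lower and 1 higher in each. Of 6 endothelial markers 2 were lower, and of 6 fibroblast markers 3 were lower and 1 higher, in each genotype. Whether cell numbers changed was not tested, nor was the part of these marker changes in the values of the ribosomal protein genes.

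In the large subunit, LPS lowered 17 of 51 members (33.3%) and raised 4 (7.84%) in PPARα-deficient hearts. In Ppara-flox hearts it lowered 21 (41.2%) and raised 4 (7.84%). The genome-wide rates were 18.3% down and 19.4% up in PPARα-deficient hearts, and 19.1% down and 20.2% up in Ppara-flox hearts. Above 1 CPM in 8 libraries, the rates down were 24.2% and 25.3%. Whether the subunit departs from these rates was not tested. The members with bacterial counterparts, 30 of the 51, accounted for 10 of the 17 and 11 of the 21 lower calls. In PPARα-deficient hearts, 33.3% of them were lower, as were 33.3% of the members specific to mitochondria. In Ppara-flox hearts these shares were 36.7% and 47.6%, and the difference was not tested. The deepest fall was that of Mrpl34 (chr8:71464959-71465747 on GRCm38), the counterpart of bacterial L34. It stood at 22.2, 19.4, 13.9 and 26.8 CPM in PPARα-deficient LPS hearts, against 41.6, 41.1, 39.7 and 42.4 CPM in PPARα-deficient PBS hearts. It stood at 19.1, 21.4, 23.3 and 16.2 CPM in Ppara-flox LPS hearts, against 36.7, 51.1, 38.3 and 34.2 CPM in Ppara-flox PBS hearts. In each genotype every LPS heart lay below every PBS heart. The log2 fold change of Mrpl34 was -1.002 ± 0.17 in PPARα-deficient hearts (adjusted p = 0.000182) and -1.002 ± 0.17 in Ppara-flox hearts (adjusted p = 0.000175), a 2.003-fold lower level in either genotype.

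Mrpl39 and Mrpl45, both specific to mitochondria, came next in PPARα-deficient hearts, while in Ppara-flox hearts Mrpl53, Mrpl19 and Mrps36 stood between them. Mrpl39 (chr16:84717576-84735742) had 32.5, 27.8, 32.6 and 33.3 CPM in PPARα-deficient LPS hearts, against 61.4, 55.9, 55.6 and 51.4 CPM in PPARα-deficient PBS hearts. Mrpl39 had 34.6, 31.5, 35.1 and 29.4 CPM in Ppara-flox LPS hearts, against 51.9, 55.9, 56.2 and 61.5 CPM in Ppara-flox PBS hearts. The groups did not overlap in either genotype, and the log2 fold change was -0.83 ± 0.09 in PPARα-deficient hearts (adjusted p = 1.46e-06) and -0.79 ± 0.09 in Ppara-flox hearts (adjusted p = 2.29e-06). Mrpl45, which in human mitoribosomes lies by the exit tunnel and ties the large subunit to the inner membrane, had 33.2, 33.3, 32.1 and 37.9 CPM in PPARα-deficient LPS hearts, against 52.9, 55.6, 51.1 and 59.0 CPM in PPARα-deficient PBS hearts. It had 36.3, 39.1, 30.5 and 33.7 CPM in Ppara-flox LPS hearts, against 52.4, 60.9, 53.1 and 52.2 CPM in Ppara-flox PBS hearts. Again no LPS heart reached the lowest PBS heart. The log2 fold change of Mrpl45 was -0.68 ± 0.09 in PPARα-deficient hearts (adjusted p = 1.6e-05) and -0.65 ± 0.09 in Ppara-flox hearts (adjusted p = 2.48e-05).

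Mrpl18 is the counterpart of a bacterial protein that binds 5S rRNA, and Mrpl19 of one at the interface between the subunits. Mrpl18 averaged 48.5 ± 4.19 CPM in PPARα-deficient LPS hearts, against 73.7 ± 1.26 CPM in PPARα-deficient PBS hearts, and 45.5 ± 2.15 CPM in Ppara-flox LPS hearts, against 70.1 ± 4.84 CPM in Ppara-flox PBS hearts (SD, n = 4 each). Its log2 fold change was -0.60 ± 0.08 in PPARα-deficient hearts (adjusted p = 8.9e-06) and -0.62 ± 0.08 in Ppara-flox hearts (adjusted p = 5.98e-06). Mrpl19 averaged 17.7 ± 1.55 CPM in PPARα-deficient LPS hearts, against 28.3 ± 3.94 CPM in PPARα-deficient PBS hearts, and 15.8 ± 0.900 CPM in Ppara-flox LPS hearts, against 26.0 ± 1.91 CPM in Ppara-flox PBS hearts (SD, n = 4 each). Its log2 fold change was -0.67 ± 0.10 in PPARα-deficient hearts (adjusted p = 7e-05) and -0.72 ± 0.10 in Ppara-flox hearts (adjusted p = 3.45e-05). For both genes the LPS and PBS hearts were fully separated in each genotype.

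Mrpl47, the counterpart of bacterial L29, had a log2 fold change of -0.43 ± 0.13 in PPARα-deficient hearts (adjusted p = 0.0135) and -0.63 ± 0.13 in Ppara-flox hearts (adjusted p = 0.0008). The difference between these responses, 0.21 ± 0.18, did not pass its test (adjusted p = 0.999). Its call in PPARα-deficient hearts was lost without PBS replicate 4 (adjusted p = 0.0563). Mrpl12, part of the stalk that recruits translation factors and also reported to bind the mitochondrial RNA polymerase, averaged 93.3 ± 7.26 CPM in PPARα-deficient LPS hearts, against 120.5 ± 5.67 CPM in PPARα-deficient PBS hearts, and 88.6 ± 8.09 CPM in Ppara-flox LPS hearts, against 123 ± 11.7 CPM in Ppara-flox PBS hearts (SD, n = 4 each). Its log2 fold change was -0.37 ± 0.09 in PPARα-deficient hearts (adjusted p = 0.00288) and -0.47 ± 0.09 in Ppara-flox hearts (adjusted p = 0.000355). Mrpl42, the member with the highest level per kb, had a log2 fold change of -0.24 ± 0.07 (adjusted p = 0.0121) in PPARα-deficient hearts and -0.36 ± 0.07 (adjusted p = 0.000691) in Ppara-flox hearts.

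In the small subunit, LPS lowered 11 of 26 members (42.3%) and raised 2 (7.69%) in each genotype. The genome-wide rates down were 18.3% in PPARα-deficient and 19.1% in Ppara-flox hearts, and those up were 19.4% and 20.2%. Above 1 CPM in 8 libraries, the rates down were 24.2% and 25.3%. A departure of this subunit from these rates was not tested. Mrps35 and Mrps23 are specific to mitochondria, whereas Mrps16 has a bacterial counterpart. Mrps35 had 41.3, 35.6, 34.3 and 35.8 CPM in PPARα-deficient LPS hearts, against 55.8, 51.5, 54.3 and 53.9 CPM in PPARα-deficient PBS hearts. Mrps35 had 37.5, 40.1, 42.5 and 31.6 CPM in Ppara-flox LPS hearts, against 47.6, 58.0, 51.7 and 53.7 CPM in Ppara-flox PBS hearts. No LPS heart overlapped a PBS heart, and the log2 fold change of Mrps35 was -0.55 ± 0.09 in PPARα-deficient hearts (adjusted p = 0.000188) and -0.48 ± 0.09 in Ppara-flox hearts (adjusted p = 0.000691).

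Mrps23 varied more between hearts. It had 54.5, 84.2, 85.7 and 90.1 CPM in PPARα-deficient LPS hearts, against 107, 106, 110.4 and 109 CPM in PPARα-deficient PBS hearts. It had 68.7, 79.0, 73.8 and 49.99 CPM in Ppara-flox LPS hearts, against 87.6, 106, 99.3 and 96.6 CPM in Ppara-flox PBS hearts. PPARα-deficient LPS replicate 1 and Ppara-flox LPS replicate 4 were the lowest of their groups by a wide margin. For Mrps23 the log2 fold change was -0.46 ± 0.15 in PPARα-deficient hearts (adjusted p = 0.0185) and -0.52 ± 0.15 in Ppara-flox hearts (adjusted p = 0.00896), and without PPARα-deficient LPS replicate 1 the adjusted p in PPARα-deficient hearts was 0.0506. Mrps16 changed by -0.45 ± 0.12 in PPARα-deficient hearts (adjusted p = 0.00489) and -0.34 ± 0.12 in Ppara-flox hearts (adjusted p = 0.0251). In Ppara-flox hearts the LPS and PBS ranges of Mrps16 overlapped, and its adjusted p rose to between 0.06 and 0.0885 when any of LPS replicates 1 and 4 or PBS replicates 2 and 3 was left out.

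Mrpl44, Mrpl3 and Mrps22, chosen after their values were seen because human mutations in each are known to cause hypertrophic cardiomyopathy, differed in their calls, and differences between them were not tested. Mrpl44 fell in both genotypes, with a log2 fold change of -0.30 ± 0.08 in PPARα-deficient hearts (adjusted p = 0.00871) and -0.35 ± 0.08 in Ppara-flox hearts (adjusted p = 0.00273). Mrpl3 had a log2 fold change of -0.30 ± 0.13 in PPARα-deficient hearts (adjusted p = 0.0852) and -0.58 ± 0.13 in Ppara-flox hearts (adjusted p = 0.00247). Ppara-flox PBS replicate 1 stood at 96.2 CPM of Mrpl3, against 61.6 to 64.5 CPM in the other Ppara-flox PBS hearts. Without it the log2 fold change of Mrpl3 in Ppara-flox hearts was -0.40 ± 0.10 (adjusted p = 0.00698), and the PPARα-deficient value, still -0.30, passed the test (adjusted p = 0.0219). Mrps22 was not called, with values of -0.32 ± 0.14 in PPARα-deficient hearts (adjusted p = 0.0796) and -0.34 ± 0.14 in Ppara-flox hearts (adjusted p = 0.0675). Without Ppara-flox LPS replicate 3 both Mrps22 values passed, at -0.34 in PPARα-deficient hearts (adjusted p = 0.0426) and -0.49 in Ppara-flox hearts (adjusted p = 0.0103). Leaving out PBS replicate 3 of the Ppara-flox hearts made the Ppara-flox value pass too (adjusted p = 0.0212).

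The same 6 members were higher after LPS in both genotypes: Mrps18b, Mrpl17, Mrpl52, Mrpl27, Mrpl33 and Mrps10. Mrps18b (chr17:35910379-35916389) rose most. It had 37.3, 39.2, 30.6 and 32.4 CPM in PPARα-deficient LPS hearts, against 22.1, 19.9, 23.8 and 22.8 CPM in PPARα-deficient PBS hearts. It had 29.5, 37.4, 31.9 and 32.6 CPM in Ppara-flox LPS hearts, against 19.5, 21.2, 16.7 and 20.6 CPM in Ppara-flox PBS hearts. Every LPS heart exceeded every PBS heart of its genotype, and the log2 fold change was 0.66 ± 0.11 in PPARα-deficient hearts (adjusted p = 0.000109) and 0.75 ± 0.11 in Ppara-flox hearts (adjusted p = 2.76e-05), or 1.57-fold and 1.68-fold.

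Mrpl17, the counterpart of bacterial L17, had 40.2, 42.0, 32.8 and 36.6 CPM in PPARα-deficient LPS hearts, against 27.9, 25.4, 25.3 and 21.8 CPM in PPARα-deficient PBS hearts. It had 32.3, 38.4, 41.7 and 35.4 CPM in Ppara-flox LPS hearts, against 22.5, 30.5, 23.4 and 21.7 CPM in Ppara-flox PBS hearts. The groups were again separate, and the log2 fold change of Mrpl17 was 0.59 ± 0.12 in PPARα-deficient hearts (adjusted p = 0.000918) and 0.59 ± 0.12 in Ppara-flox hearts (adjusted p = 0.000895). Mrpl52, which is specific to mitochondria, changed by 0.45 ± 0.13 in PPARα-deficient hearts (adjusted p = 0.0112) and 0.53 ± 0.13 in Ppara-flox hearts (adjusted p = 0.00376). Mrpl33, a small protein with a bacterial counterpart, changed by 0.33 ± 0.08 in PPARα-deficient hearts (adjusted p = 0.00534) and 0.34 ± 0.08 in Ppara-flox hearts (adjusted p = 0.00401).

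The other higher calls were less firm. Mrpl27, whose bacterial counterpart reaches the peptidyl transferase centre, changed by 0.43 ± 0.11 in PPARα-deficient hearts (adjusted p = 0.00505) and 0.34 ± 0.11 in Ppara-flox hearts (adjusted p = 0.0207), and its call in Ppara-flox hearts was lost without PBS replicate 1 or 4 or LPS replicate 3 or 4 (adjusted p = 0.0535 to 0.0712). Mrps10 changed by 0.30 ± 0.10 in PPARα-deficient hearts (adjusted p = 0.0303) and 0.31 ± 0.10 in Ppara-flox hearts (adjusted p = 0.0255). Its call in Ppara-flox hearts was lost without PBS replicate 2 or 4 or LPS replicate 3 or 4 (adjusted p = 0.0545 to 0.0788). Its call in PPARα-deficient hearts was lost without PBS replicate 2 or 4 or LPS replicate 2, 3 or 4 (adjusted p = 0.0502 to 0.105).

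The Mrps18 paralogs parted ways. All derive from the ancestor of bacterial S18: the Mrps18c protein takes the position of S18 in the small subunit, Mrps18b sits elsewhere in that subunit, and Mrps18a sits in the large subunit. Mrps18a had 33.7, 28.8, 33.6 and 33.7 CPM in PPARα-deficient LPS hearts, against 39.5, 42.7, 38.8 and 39.0 CPM in PPARα-deficient PBS hearts. It had 27.5, 31.1, 33.9 and 28.7 CPM in Ppara-flox LPS hearts, against 37.8, 49.4, 40.6 and 38.6 CPM in Ppara-flox PBS hearts. Mrps18a was below its PBS hearts in every LPS heart of each genotype, with a log2 fold change of -0.30 ± 0.10 in PPARα-deficient hearts (adjusted p = 0.0198) and -0.46 ± 0.10 in Ppara-flox hearts (adjusted p = 0.00109). In PPARα-deficient hearts that call was lost without PBS replicate 2 (adjusted p = 0.0592) or LPS replicate 2 (adjusted p = 0.0729). Mrps18c had 18.4, 20.5, 21.0 and 18.6 CPM in PPARα-deficient LPS hearts, against 17.4, 18.5, 15.1 and 15.7 CPM in PPARα-deficient PBS hearts, and 15.4, 18.9, 16.7 and 19.997 CPM in Ppara-flox LPS hearts, against 16.2, 19.2, 12.7 and 16.1 CPM in Ppara-flox PBS hearts. Its LPS and PBS ranges overlapped in both genotypes, and the log2 fold change of 0.24 ± 0.12 in PPARα-deficient hearts (adjusted p = 0.146) and 0.15 ± 0.12 in Ppara-flox hearts (adjusted p = 0.38) did not pass the test. Mrps18b, described above, was higher, so LPS hearts held more Mrps18b and less Mrps18a transcript than PBS hearts of the same genotype.

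**Figure D2:**
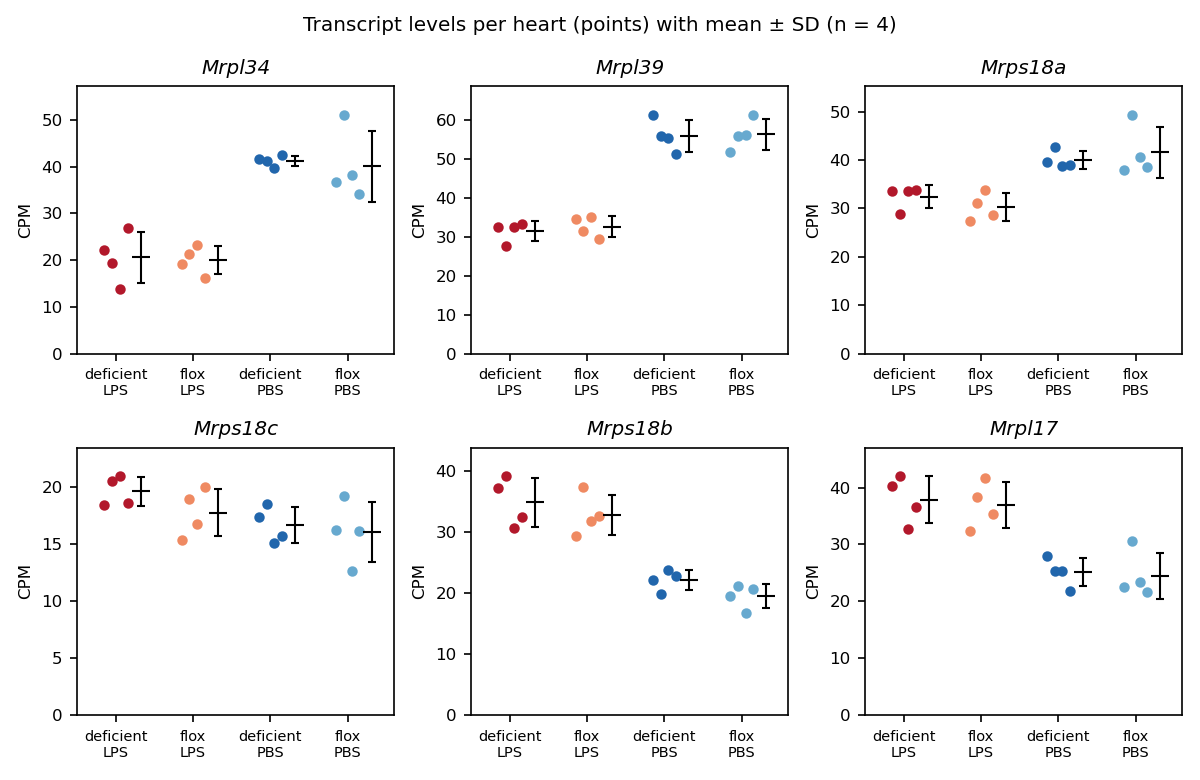
Transcript levels in CPM (vertical axes, from 0) of Mrpl34, Mrpl39, Mrps18a, Mrps18c, Mrps18b and Mrpl17 in PPARα-deficient LPS, Ppara-flox LPS, PPARα-deficient PBS and Ppara-flox PBS hearts. Points are hearts, and the bar beside them is the mean with its SD (n = 4). Mrpl34, Mrpl39 and Mrps18a lie lower in LPS hearts, Mrps18b and Mrpl17 lie higher, and the Mrps18c points of Ppara-flox LPS and PBS hearts overlap.

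Mrps36, the member outside the ribosome, fell in both genotypes. It had 40.8, 42.8, 38.4 and 44.1 CPM in PPARα-deficient LPS hearts, against 53.9, 58.7, 56.1 and 48.0 CPM in PPARα-deficient PBS hearts. It had 33.7, 35.1, 41.5 and 31.2 CPM in Ppara-flox LPS hearts, against 54.0, 62.4, 55.9 and 57.4 CPM in Ppara-flox PBS hearts. The log2 fold change was -0.38 ± 0.09 in PPARα-deficient hearts (adjusted p = 0.00355) and -0.70 ± 0.09 in Ppara-flox hearts (adjusted p = 1.7e-05), with no overlap in either. Without Mrps36, 28 of 77 members were lower in PPARα-deficient hearts and 32 of 77 in Ppara-flox hearts.

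The responses in the 2 genotypes rest on separate hearts and can be set side by side. Of the members lower in PPARα-deficient hearts, 28 (96.6% of 29) were also lower in Ppara-flox hearts, where they made up 84.8% of 33. None moved in opposite directions past the test, and 66 of 78 had the same sign. Across the 78 members the log2 fold changes had a Pearson correlation of 0.857, against 0.753 over all genes tested. The points share the fit's spread estimates, and genes are not independent replicates. Mrpl15 was called in PPARα-deficient hearts alone (-0.40 ± 0.13, adjusted p = 0.0198, and -0.05 ± 0.13, adjusted p = 0.78, in Ppara-flox hearts). That call was lost without PBS replicate 3 (adjusted p = 0.0898), LPS replicate 2 (0.0533) or LPS replicate 3 (0.0539). Mrpl3, Mrpl4, Mrpl37, Mrpl51 and Mrpl53 were called in Ppara-flox hearts alone. The call of Mrpl51 was lost without PBS replicate 2 or 3 or LPS replicate 1 or 4 (edgeR adjusted p = 0.0666 to 0.101).

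Among the members called in Ppara-flox hearts alone, the call of Mrpl53 also turned on single hearts. It had 5.94, 7.39, 7.11 and 8.48 CPM in PPARα-deficient LPS hearts, against 7.95, 7.65, 6.69 and 5.96 CPM in PPARα-deficient PBS hearts. It had 5.05, 6.73, 6.05 and 5.32 CPM in Ppara-flox LPS hearts, against 17.3, 7.60, 7.02 and 6.35 CPM in Ppara-flox PBS hearts. Ppara-flox PBS replicate 1 stood far above the other 15 hearts. The log2 fold change of Mrpl53 was 0.03 ± 0.25 in PPARα-deficient hearts (adjusted p = 0.934) and -0.72 ± 0.25 in Ppara-flox hearts (adjusted p = 0.0322), and the call in Ppara-flox hearts was lost without PBS replicate 1 (adjusted p = 0.196), LPS replicate 1 (0.0834) or LPS replicate 4 (0.0716). Without PBS replicate 1 the log2 fold change in Ppara-flox hearts was -0.27. It was also lost by limma-voom (adjusted p = 0.0672), with the replicate block (0.0628) and in a fit of only the 8 libraries compared (0.0748). Exons of an unnamed gene model overlap Mrpl53 on the same strand, so reads of the 2 could not be told apart.

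**Figure D3:**
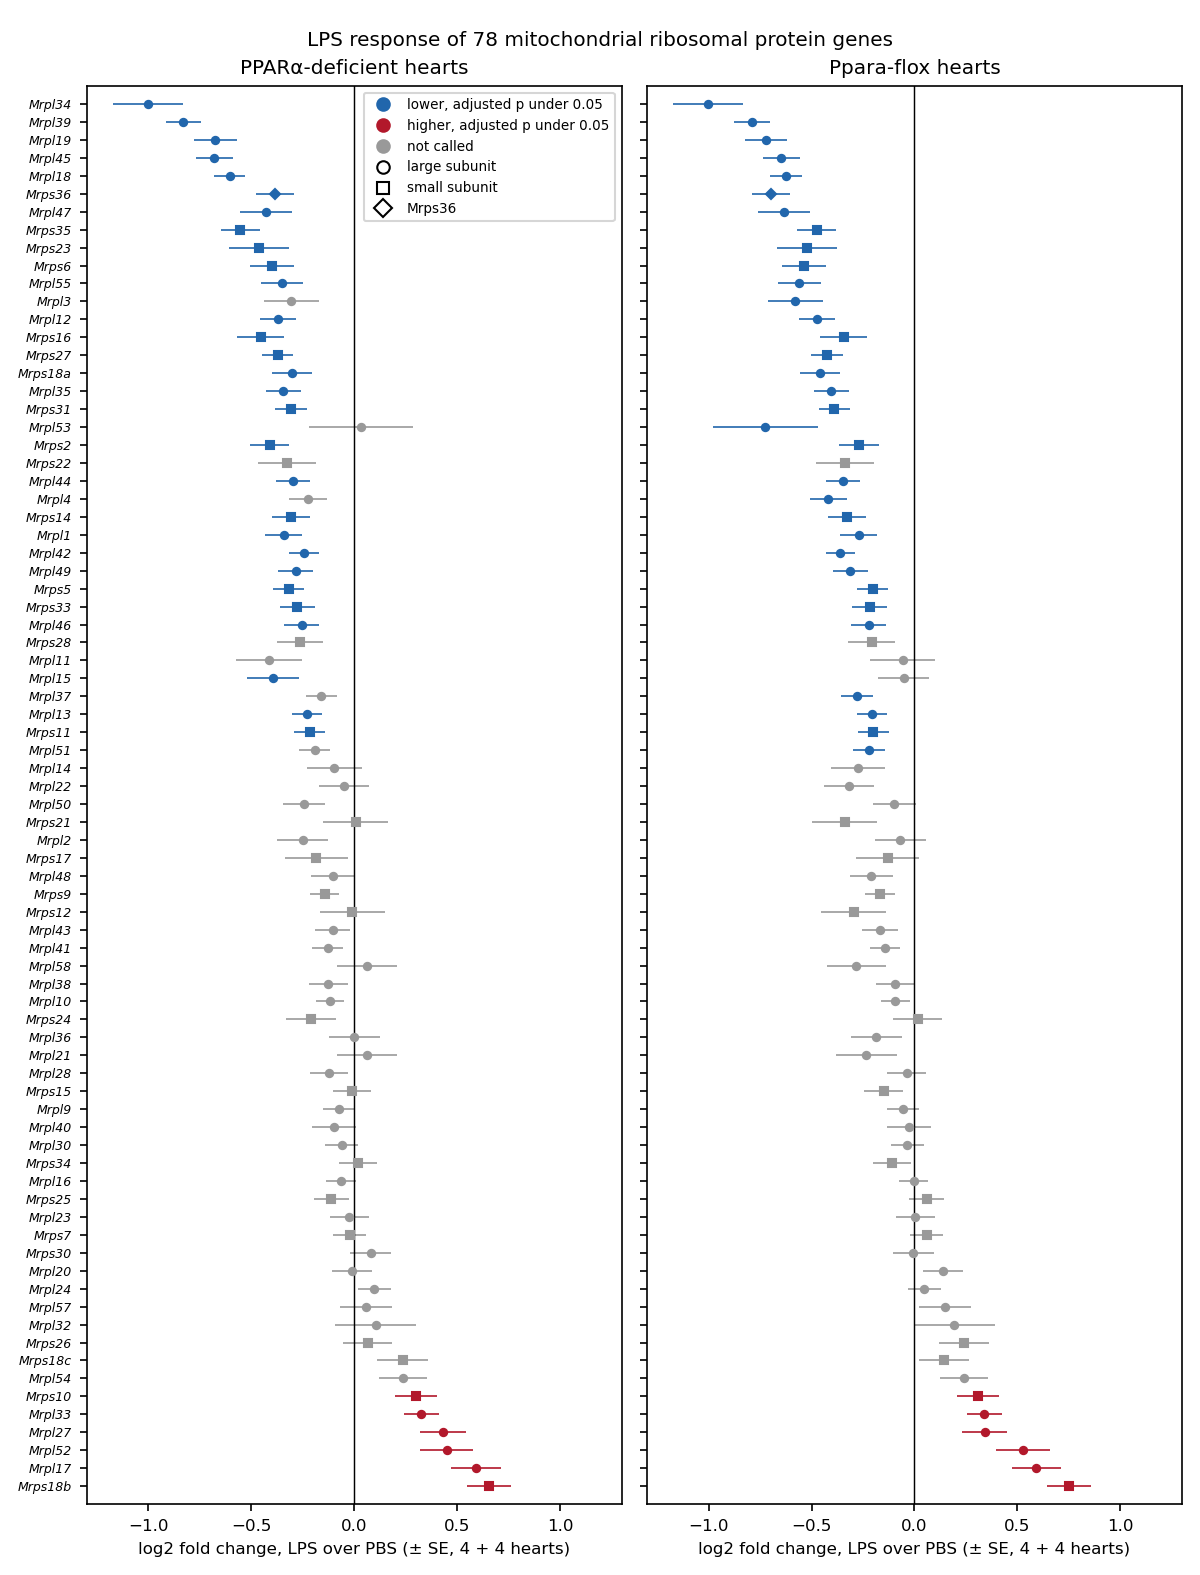
Log2 fold change, LPS over PBS, of the 78 members in PPARα-deficient hearts (left) and Ppara-flox hearts (right), with bars of 1 SE from the edgeR fit and 4 hearts per group. Circles are large-subunit members, squares small-subunit members and the diamond Mrps36. Blue marks lower and red higher at an adjusted p under 0.05. The order of members is the same on both sides, from Mrpl34 at -1.002 to Mrps18b at 0.66 and 0.75, and Mrpl53 differs most between the panels.

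Between the genotypes, no member was called by edgeR over all 16 libraries, under PBS or after LPS. These comparisons use the same hearts as the LPS comparisons. Under PBS, 0 of 78 members were called in PPARα-deficient against Ppara-flox hearts by edgeR, DESeq2 or limma-voom, where 0.401% of all genes tested were lower and 0.0321% higher. At an unadjusted p under 0.05, 1 member was found by edgeR, and the median log2 fold change was 0.04. For 76 members the 95% interval of the difference lay within 1.5-fold either way, the exceptions being Mrpl32 and Mrpl53. Mrpl27, Mrpl20 and Mrpl13 had the smallest p, with log2 fold changes of 0.31 ± 0.11 (adjusted p = 0.579), 0.20 ± 0.10 (adjusted p = 0.897) and 0.14 ± 0.07 (adjusted p = 0.935). Separate groups were seen for Mrpl27 and Mrps23, both higher in PPARα-deficient hearts, where 1.57% of all genes tested were separate in that direction and 2.42% in the other.

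After LPS, 0 of 78 members were called between the genotypes by edgeR or limma-voom and 1 by DESeq2, where 0.85% of all genes tested were lower and 0.385% higher by edgeR. DESeq2 called more genes than edgeR, 200 higher and 244 lower of 18713 tested. At an unadjusted p under 0.05, edgeR found 3 members. Mrpl27 came nearest. It had 28.3, 24.9, 34.7 and 33.7 CPM in PPARα-deficient LPS hearts, against 22.6, 21.8, 23.5 and 24.4 CPM in Ppara-flox LPS hearts. The 2 groups did not overlap, and the log2 fold change was 0.40 ± 0.11 with an adjusted p of 0.115 by edgeR and of 0.0379 by DESeq2. Without PPARα-deficient LPS replicate 2 the edgeR adjusted p was 0.042. Mrps36 and Mrpl42 followed, at 0.23 ± 0.09 (adjusted p = 0.421) and 0.16 ± 0.07 (adjusted p = 0.503). Mrpl27, Mrpl42 and Mrps14 were separate between the genotypes, all higher in PPARα-deficient LPS hearts (2.53% of all genes tested, with 2.79% lower). For 75 members the interval lay within 1.5-fold, the exceptions being Mrpl27, Mrpl53 and Mrps21.

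The LPS response did not differ between the genotypes past the test for any member. By edgeR, 0 of 78 members and 0.0% of all genes tested were called for the difference between the LPS effects, 1 member had an unadjusted p under 0.05, and DESeq2 and limma-voom called 0. Mrps36, Mrpl53 and Mrpl15 had the smallest p, with differences of 0.31 ± 0.13 (adjusted p = 0.82), 0.76 ± 0.36 (adjusted p = 0.87) and -0.34 ± 0.18 (adjusted p = 0.909). The interval of this difference lay within 1.5-fold for 64 members. For the other 14, among them Mrpl3, Mrpl47 and Mrps12, a larger difference was within the error.

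Transcripts for the proteins of the cytosolic ribosome took the other direction. Of 84 cytosolic ribosomal protein genes tested, LPS raised 65 and lowered 0 in PPARα-deficient hearts and raised 60 and lowered 1 in Ppara-flox hearts, with median log2 fold changes of 0.45 and 0.42. Rps6, a small-subunit protein phosphorylated by S6 kinase, rose by 0.75 ± 0.08 in PPARα-deficient hearts (adjusted p = 3.05e-06) and 0.73 ± 0.08 in Ppara-flox hearts (adjusted p = 3.69e-06), and Rpl3, which lies by the peptidyl transferase centre, by 0.92 ± 0.11 in PPARα-deficient hearts (adjusted p = 3.59e-06) and 0.89 ± 0.11 in Ppara-flox hearts (adjusted p = 4.91e-06). The summed mitochondrial set amounted to 19.9% to 23.3% of the summed cytosolic set in PPARα-deficient LPS hearts, against 31.97% to 36.5% in PPARα-deficient PBS hearts, and to 20.5% to 22.7% in Ppara-flox LPS hearts, against 31.6% to 35.6% in Ppara-flox PBS hearts. No LPS heart reached the PBS range. This ratio holds the rise of the cytosolic sum as well as the fall of the mitochondrial sum. The cytosolic sum was 11916 to 14704 CPM in PPARα-deficient LPS hearts, against 8960 to 10305 CPM in PPARα-deficient PBS hearts. It was 11445 to 14569 CPM in Ppara-flox LPS hearts, against 8905 to 10342 CPM in Ppara-flox PBS hearts.

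Other genes of mitochondrial translation gave mixed counts. Of 5 ribosomal proteins that carry other names, only Ptcd3 was called, with a log2 fold change of -0.51 ± 0.10 in PPARα-deficient hearts (adjusted p = 0.000677) and -0.41 ± 0.10 in Ppara-flox hearts (adjusted p = 0.00372). Of 15 translation factors and their partners, 9 fell and 1 rose in PPARα-deficient hearts, and 10 fell and 1 rose in Ppara-flox hearts, with median log2 fold changes of -0.34 and -0.40. Mtif2, the initiation factor, changed by -0.85 ± 0.09 in PPARα-deficient hearts (adjusted p = 1.46e-06) and -0.82 ± 0.09 in Ppara-flox hearts (adjusted p = 1.95e-06), and Taco1, the translational activator of the COX1 message, by -0.88 ± 0.10 in PPARα-deficient hearts (adjusted p = 2.08e-06) and -0.78 ± 0.10 in Ppara-flox hearts (adjusted p = 6.36e-06). Lrpprc, which stabilises mitochondrial messages, changed by -0.48 ± 0.08 in PPARα-deficient hearts (adjusted p = 0.000178) and -0.51 ± 0.08 in Ppara-flox hearts (adjusted p = 0.000106). The 1 higher call in either genotype was Mrrf, the recycling factor, at 0.19 and 0.21, named after its values were seen.

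Of 27 assembly and rRNA modification genes, 7 fell and 4 rose in PPARα-deficient hearts, and 6 fell and 4 rose in Ppara-flox hearts. Genome-wide, LPS lowered 18.3% of genes and raised 19.4% in PPARα-deficient hearts, against 19.1% and 20.2% in Ppara-flox hearts. Of genes with at least 1 CPM in 8 libraries, 24.2% fell and 25.3% rose in PPARα-deficient hearts, against 25.3% and 25.5% in Ppara-flox hearts. Whether this list, or those of translation, tRNA, mitochondrial DNA and regulator genes, departs from such rates was not tested. Fastkd2 and Mettl17 fell in both genotypes, with log2 fold changes of -0.63 and -0.65 in PPARα-deficient hearts and -0.58 and -0.76 in Ppara-flox hearts. The GTPase gene Gtpbp6 rose by 0.62 in PPARα-deficient hearts and 0.82 in Ppara-flox hearts. Ddx28, a helicase of large-subunit assembly, was higher, at 0.68 in PPARα-deficient hearts and 0.41 in Ppara-flox hearts, where the call was lost without some single libraries (adjusted p up to 0.0982). Mrm1, an rRNA methyltransferase, had -0.69 ± 0.15 in PPARα-deficient hearts (adjusted p = 0.00179) and -1.22 ± 0.16 in Ppara-flox hearts (adjusted p = 1.03e-05). Among 20 genes of mitochondrial aminoacyl-tRNA synthesis, 6 were lower and 1 higher in each genotype, led by Qrsl1 at -0.98 and -0.86 in PPARα-deficient and Ppara-flox hearts. The alanyl- and leucyl-tRNA synthetase genes Aars2 and Lars2 had -0.58 and -0.54 in PPARα-deficient hearts and -0.67 and -0.58 in Ppara-flox hearts.

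Of 22 genes for upkeep and transcription of mitochondrial DNA and processing of its RNA, 8 fell and 5 rose in PPARα-deficient hearts, and 7 fell and 3 rose in Ppara-flox hearts. Grsf1, a component of mitochondrial RNA granules, changed by -0.66 ± 0.06 in PPARα-deficient hearts (adjusted p = 2.22e-07) and -0.53 ± 0.06 in Ppara-flox hearts (adjusted p = 1.84e-06). Prorp, the nuclease subunit of mitochondrial RNase P, had a log2 fold change of 0.48 ± 0.16 in PPARα-deficient hearts (adjusted p = 0.0242) and 1.11 ± 0.16 in Ppara-flox hearts (adjusted p = 4.03e-05). Elac2, which trims the other end of mitochondrial tRNAs, had a log2 fold change of 0.27 ± 0.09 in PPARα-deficient hearts (adjusted p = 0.0236) and 0.56 ± 0.09 in Ppara-flox hearts (adjusted p = 8.46e-05). Both rose in each genotype, but in PPARα-deficient hearts both calls were lost without some single libraries (adjusted p up to 0.0778 for Prorp and 0.0903 for Elac2). Tfam, which packages mitochondrial DNA, and Twnk, its helicase, fell, with log2 fold changes of -0.41 and -0.42 in PPARα-deficient hearts and -0.26 and -0.34 in Ppara-flox hearts. None of the 15 RNAs encoded by mitochondrial DNA that were tested, the ribosomal RNAs included, was called in either genotype by edgeR, and 0 had an unadjusted p under 0.05. Among them mt-Rnr2, the large-subunit ribosomal RNA, had -0.29 ± 0.28 in PPARα-deficient hearts (adjusted p = 0.449) and -0.46 ± 0.28 in Ppara-flox hearts (adjusted p = 0.215). The labels do not say how ribosomal RNA was removed, and this RNA is read with that limit.

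**Figure D4:**
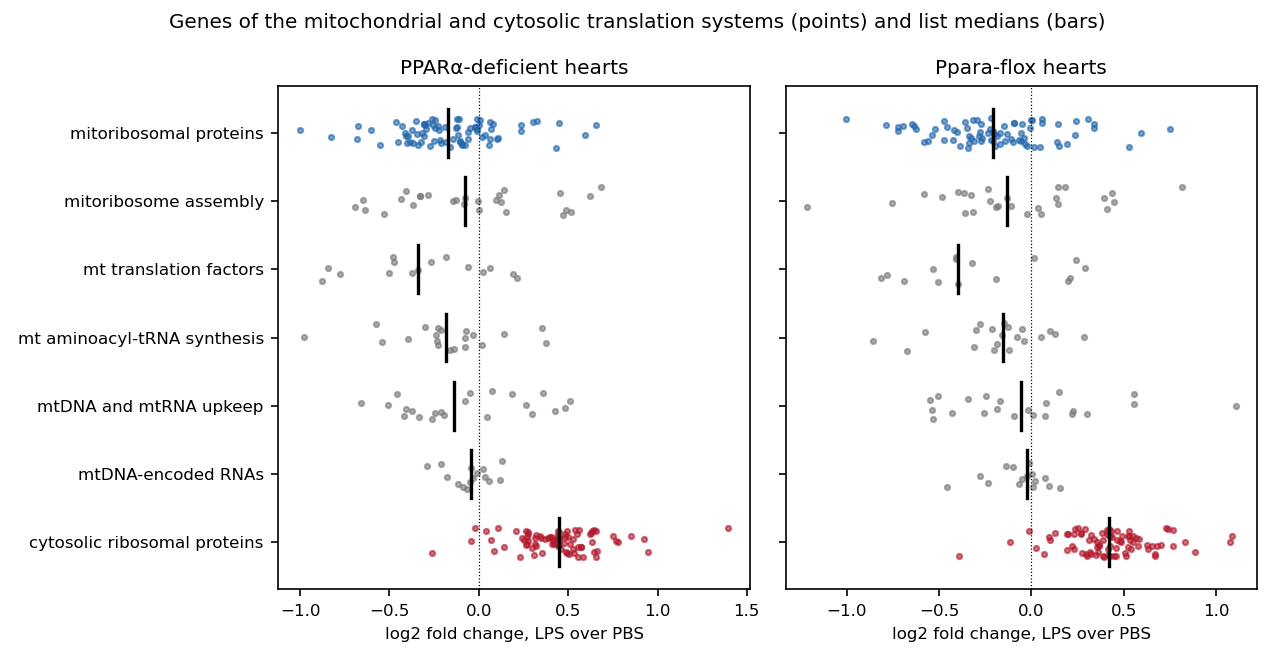
Log2 fold change, LPS over PBS, of single genes (points) in PPARα-deficient hearts (left) and Ppara-flox hearts (right), by gene list. Black bars are list medians, at -0.17 and -0.21 for the mitochondrial ribosomal proteins and at 0.45 and 0.42 for the cytosolic ribosomal proteins, and the points are spread vertically at random for legibility.

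Among 11 transcriptional regulators of mitochondrial genes, 5 fell and 2 rose in each genotype. Ppargc1a, the coactivator of mitochondrial biogenesis, had -2.79 ± 0.36 in PPARα-deficient hearts (adjusted p = 1.39e-05) and -3.81 ± 0.38 in Ppara-flox hearts (adjusted p = 7.83e-07), and the nuclear receptor gene Esrrg had -2.17 ± 0.19 in PPARα-deficient hearts (adjusted p = 1.79e-07) and -2.26 ± 0.19 in Ppara-flox hearts (adjusted p = 1.07e-07). Myc, a driver of ribosome production, had 2.20 ± 0.25 in PPARα-deficient hearts (adjusted p = 2.7e-06) and 3.13 ± 0.26 in Ppara-flox hearts (adjusted p = 9.42e-08). The genes for NRF1, GABPA and YY1, factors known to bind many promoters of mitochondrial protein genes, were not called: Nrf1 had 0.33 and 0.20, Gabpa -0.21 and -0.10, and Yy1 0.03 and 0.07 in PPARα-deficient and Ppara-flox hearts, named after their values were seen.

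Promoter sequence was read from RefSeq windows on GRCm38.p6 that run from 250 bases before to 50 bases after each annotated start. Windows were found for 69 of the 78 members, 75 in all. Those of Mrpl4, Mrpl13, Mrpl15, Mrpl19, Mrpl38, Mrpl54, Mrps28, Mrps34 and Mrps35 were not analysed here. The stretches below show the same letters before a gene that fell and a gene that rose with LPS. They end at the annotated start or, where an annotated exon begins earlier, before it. Capitals mark the NRF1 motif, GCGC, any base and then TGCGC, or its reverse complement, in Mrpl45 (chr11:97315566-97315715, plus strand), which fell, and in Mrpl17 (chr7:105811100-105811237, minus strand), which rose.
Mrpl45: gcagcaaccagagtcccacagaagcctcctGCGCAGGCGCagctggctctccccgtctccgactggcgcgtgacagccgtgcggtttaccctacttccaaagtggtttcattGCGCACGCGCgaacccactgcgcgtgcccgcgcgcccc
Mrpl17: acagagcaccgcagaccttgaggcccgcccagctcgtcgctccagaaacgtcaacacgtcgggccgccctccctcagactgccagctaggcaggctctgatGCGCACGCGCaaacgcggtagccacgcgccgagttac
Capitals mark CCGGAAG, a core motif of ETS factors such as GABP, in Mrpl34 (chr8:71464776-71464925, plus strand), which fell, and in Mrpl27 (chr11:94653641-94653766, plus strand), which rose.
Mrpl34: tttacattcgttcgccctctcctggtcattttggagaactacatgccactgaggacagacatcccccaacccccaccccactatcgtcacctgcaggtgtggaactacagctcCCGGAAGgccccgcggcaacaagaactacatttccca
Mrpl27: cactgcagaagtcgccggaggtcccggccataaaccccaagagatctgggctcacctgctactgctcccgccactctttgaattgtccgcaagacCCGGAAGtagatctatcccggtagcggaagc

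Motifs were counted as exact matches on either strand. The NRF1 motif was present in 17.3% of the 75 member windows, against 8.51% of 15632 windows of genes tested and 4.6% of all 32851 windows. CCGGAAG was present in 34.7% of member windows, against 15.2% and 8.86%. AAGATGGCG, the YY1 motif, was present in 10.7%, against 2.5% and 1.4%. TCAAGGTCA, the motif of the oestrogen-related receptors, was in 0 of the 75 windows, against 0.275% of windows of genes tested, and the PPAR motif, AGGTCA given as a direct repeat with 1 base between, was in 0, against 0.0448%. At rates this low, 0 matches in 75 windows could not show whether the members differ from other genes in these 2 motifs. No match of one motif overlapped a match of another in the member windows. The NRF1 motif overlapped itself in 1 place, in Mrps26.

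Members with the NRF1 motif or CCGGAAG were found among the lower and the higher calls. Among the 13 members with the NRF1 motif, 4 were lower, 1 was higher and 8 were not called after LPS in Ppara-flox hearts. Among the 26 with CCGGAAG, 10 were lower and 5 higher, and among the 8 with AAGATGGCG, 6 were lower and 0 higher, where 29 of the 69 members with a window were lower and 6 higher. Windows with AAGATGGCG belonged to Mrpl35, Mrpl36, Mrpl37, Mrpl42, Mrps11, Mrps18a, Mrps24 and Mrps27.

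For 25 of the 78 members, a protein-coding gene begins within 500 bases on the opposite strand, and some of these neighbours overlap the member. This made 24 pairs, 23 of them with both genes tested. How often other genes have such a neighbour was not counted. In PPARα-deficient hearts both partners of 3 pairs were lower, and in Ppara-flox hearts both partners of 4. In 2 pairs the member was lower and the neighbour higher in each genotype. Mrpl46 and Mrps11 are both members, with starts 412 bases apart and exons that overlap on opposite strands. The strand setting of the counting is not given, so reads of these genes may not have been told apart. Both fell, with log2 fold changes of -0.26 and -0.22 in PPARα-deficient hearts and of -0.22 and -0.20 in Ppara-flox hearts. Each call was lost without several single libraries (edgeR adjusted p up to 0.152 for Mrpl46 and 0.118 for Mrps11). Mrps27 and Ptcd2, 81 bases apart, also both fell, with log2 fold changes of -0.37 and -0.42 for Mrps27 and of -1.14 and -1.05 for Ptcd2 in PPARα-deficient and Ppara-flox hearts.

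Other pairs went apart. Mrpl49 starts 59 bases from Fau, which encodes a cytosolic ribosomal protein. Mrpl49 was lower, with a log2 fold change of -0.28 in PPARα-deficient hearts and -0.31 in Ppara-flox hearts, while Fau was higher, at 0.28 (adjusted p = 0.0449) and 0.27 (adjusted p = 0.0465). Mrps18b starts 45 bases from Ppp1r10, whose log2 fold change was 0.20 (adjusted p = 0.22) in PPARα-deficient hearts and 0.0029 (adjusted p = 0.989) in Ppara-flox hearts, with no call. These pairs, other than that of Mrps18b, were chosen after their values were seen.

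Shared exons limit some values. Exons of 8 members overlap another gene on the same strand and those of 28 overlap one on the opposite strand, and the strand setting of the counting is not given in the sources used here. Mrps6 shares exon sequence with Slc5a3, which encodes an inositol transporter. Mrps6 was lower, with a log2 fold change of -0.40 ± 0.11 in PPARα-deficient hearts and -0.54 ± 0.11 in Ppara-flox hearts, and Slc5a3 had -1.31 and -1.44, so the value of Mrps6 is uncertain. The same holds for Mrps24 with Urgcp, Mrps34 with Nme3, and Mrpl3, Mrpl33, Mrpl51, Mrpl53 and Mrps18c with small gene models.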

How the data were processed

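RNA of 16 mouse hearts was sequenced from libraries made with a stranded kit, per the labels' protocols. Build GRCm38 and the tools HISAT, fastp 0.23.2, DESeq2 1.30.1 and StringTie 1.3.3b are listed, with no role for any of them, per the submitters' processing notes. The authors deposited whole-number estimated counts per gene symbol, 1 table per heart. Low values pile up at multiples of 4 (12828 entries at 4, against 5290 at 3 and 7264 at 5), so totals of 65569134 to 75436023 were also divided by 4, giving 16392284 to 18859006. Lines whose symbol had become a date, 27 in number and 0.0644% to 0.0861% of counts, were left out, and 116 repeated symbols were summed.

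The counts were fitted with edgeR 4.0.16 (filterByExpr, TMM scaling, 4 group means over 16 libraries, 12 residual degrees of freedom, glmQLFTest), with Benjamini-Hochberg adjustment over 18713 genes and calls at an adjusted p under 0.05. The ± after a fold change is its SE, and CPM uses TMM-scaled library sizes. The fit was tested on simulated data. DESeq2 1.42.0 and limma-voom 3.58.1 were alternatives. The 16 samples are labelled as separate samples, and the labels do not say more of the animals, so p-values measure the spread between these samples. Annotation was GENCODE vM21 and promoter windows were RefSeq's, both on GRCm38.

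Members, gene lists and tests were chosen with earlier results of these data known. Named members are, in each comparison, up to 8 called members with the lowest and up to 8 with the highest fold change, or the 3 with the smallest p where fewer than 3 were called, plus Mrpl12, Mrps36 and the Mrps18 paralogs. From each list of other genes up to 3 with the smallest p were named. Exceptions are marked in the text.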

Additional observations from a re-analysis of the deposited data

Results flagged for a closer look

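Among 144 groups of 4 hearts examined for the members given by name and for their sum, 9 held a heart far from the other 3 by Dixon's test of the gap against the range, where chance flags about 1 group in 20. In PPARα-deficient LPS hearts, Mrpl39 stood at 27.8 CPM in replicate 2, against 32.5 to 33.3 CPM in the others, and Mrps18a at 28.8 CPM in the same replicate, against 33.6 to 33.7 CPM. Mrpl19 stood at 15.4 CPM in PPARα-deficient LPS replicate 3, against 18.2 to 18.7 CPM, and Mrps23 at 54.5 CPM in PPARα-deficient LPS replicate 1, against 84.2 to 90.1 CPM. Mrpl15 stood at 38.5 CPM in Ppara-flox LPS replicate 3, against 27.8 to 28.8 CPM in the others, and Mrps22 at 15.5 CPM in the same replicate, against 10.97 to 11.4 CPM. In Ppara-flox PBS hearts, Mrpl3 stood at 96.2 CPM in replicate 1, against 61.6 to 64.5 CPM, Mrpl53 at 17.3 CPM in the same replicate, against 6.35 to 7.60 CPM, and Mrpl45 at 60.9 CPM in replicate 2, against 52.2 to 53.1 CPM.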

How the results depend on the processing

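The counts of called members moved by over 1.5 times only with stricter thresholds. At least 1.5-fold left 7 members in PPARα-deficient hearts (5 lower, 2 higher) and 10 in Ppara-flox hearts (8 lower, 2 higher), and an adjusted p under 0.01 left 21 in PPARα-deficient hearts, 17 of them lower. Other scaling, DESeq2, limma-voom, other filters, the 8 libraries compared, counts divided by 4 and leaving out mitochondrially encoded genes kept these counts within 1.5 times. With upper-quartile factors, which shift the median of all genes to -0.04 in PPARα-deficient and -0.05 in Ppara-flox hearts, the members' median was -0.22 in PPARα-deficient hearts. DESeq2 called 1 member, higher, between the genotypes after LPS, where it called 200 of 18713 genes higher. Without single libraries, the members called after LPS numbered 30 to 38 in PPARα-deficient hearts (25 to 32 lower, 5 to 6 higher) and 29 to 38 in Ppara-flox hearts (24 to 32 lower, 4 to 6 higher), and 0 to 1 were called between the genotypes after LPS, all higher. Their median ranged from 0.0021 to 0.065 between the genotypes under PBS and from -0.016 to 0.051 for the difference between the LPS effects. Uncalled values that changed sign between genotypes under PBS were Mrpl12 (-0.072 to 0.035), Mrps18a (-0.10 to 0.036) and Mrps18c (-0.046 to 0.15), and Mrps18c for the difference between the LPS effects (-0.0077 to 0.19). Same-numbered replicates showed no clear shared deviation (24 pairs, correlations -0.209 to 0.139, 1 over 0.1). Low correlations cannot exclude a pairing or a shared batch. Differently numbered pairs ranged from -0.168 to 0.358. The highest values, 0.358 and 0.33, each joined hearts of different genotype that had both received LPS, and their cause was not tested. With the replicate block, 29 members were lower and 6 higher in each genotype. The causes of these changes were not tested. The fewest deposited counts of a member in a library were 341, and the part of depth in these changes was not tested.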
